A study of Arabidopsis thaliana with 43 samples.

Results

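Early torpedo embryos were compared with late heart embryos of Arabidopsis thaliana, the thale cress, across every locus in the deposited tables. The comparison uses 6 of the 43 libraries of the series, 3 labelled early torpedo and 3 labelled late heart, and asks which transcripts differ between these neighbouring stages and how much of that rests on early torpedo replicate 2. The study sequenced embryo mRNA at 8 stages, with 3 biological replicates per stage, and also bent cotyledon RNA diluted and prepared in several ways. Early torpedo and late heart embryos alike were Col-0 wild type, with no transgene or treatment. They came from plants 4 weeks old kept under 16 h of light and 8 h of dark. Each library was made from 50 pooled embryos by TRIzol extraction and Smart-seq2, a method that primes on the poly(A) tail and amplifies whole cDNAs from little RNA, and was read as paired ends of 50 bases. The labels give the amount of total RNA as unknown and do not say how the embryos were freed from the seed. They call the replicates biological without naming separate plants, so p-values measure the spread between these libraries.

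In the heart stage the cotyledons have begun to grow out from either side of the future shoot apex. In the torpedo stage the embryo lengthens, its plastids green, and its cells begin the change from building tissues to filling with storage reserves. Seed reserves of this species are mainly oil, made from fatty acids that the plastid assembles and the endoplasmic reticulum joins into triacylglycerol, together with cruciferin and albumin proteins. Transcription factors of the LEC1, ABI3, FUS3 and LEC2 group are known to switch on these genes, several of them through a DNA motif called the RY element.

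The early torpedo libraries held 22157904, 26682000 and 25046802 estimated counts and the late heart libraries 27914890, 28234019 and 25352066. Levels are given in CPM, a gene's counts scaled to a common library total after TMM factors, and always in the order of replicates 1, 2 and 3. Early torpedo replicate 2 stood apart from its stage. Across 21014 genes its log2 CPM correlated at 0.949 and 0.954 with early torpedo replicates 1 and 3, which correlated at 0.988 with each other, and the late heart pairs correlated at 0.988 to 0.991. Genes are not independent replicates, so these values only describe the libraries. Between early torpedo replicates 1 and 3, 921 genes were more than 2-fold apart, against 3707 between replicates 1 and 2 and 3477 between replicates 2 and 3. Late heart pairs had 665 to 973 such genes. Added spike-in RNAs, whose amount the labels do not give, took 2.61%, 4.50% and 3.18% of the counts in early torpedo and 0.802%, 0.460% and 0.599% in late heart. The spike-in share was thus higher in each early torpedo library than in any late heart library, and highest in early torpedo replicate 2. The part of RNA amount in the results was not tested.

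Each library was placed on a line running from the mean of early heart (0) to the mean of late torpedo (1), using log2 CPM of 8823 genes that differed between those flanking stages. The early torpedo libraries lay at 0.634, 0.903 and 0.686 and the late heart libraries at 0.321, 0.319 and 0.362. No early torpedo library came near a late heart one. Early torpedo replicate 2 lay closer to the late torpedo libraries, at 1.04, 0.943 and 1.02, than to the others of its own stage. The mean of early torpedo was 0.741 ± 0.143 (SD, n = 3), or 0.660 without replicate 2, against 0.334 ± 0.024 (SD, n = 3) in late heart. Distance off the line, as the root mean square over genes in log2 units, was 0.608, 0.625 and 0.641 in early torpedo and 0.602, 0.557 and 0.581 in late heart. The order of the early torpedo libraries off the line depended on the setting: it was 0.402, 0.470 and 0.433 on log2(TPM + 1), 0.700, 0.624 and 0.699 over all loci tested, and 0.873, 1.062 and 0.931 with globular and bent cotyledon as the ends.

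**Figure D1:**
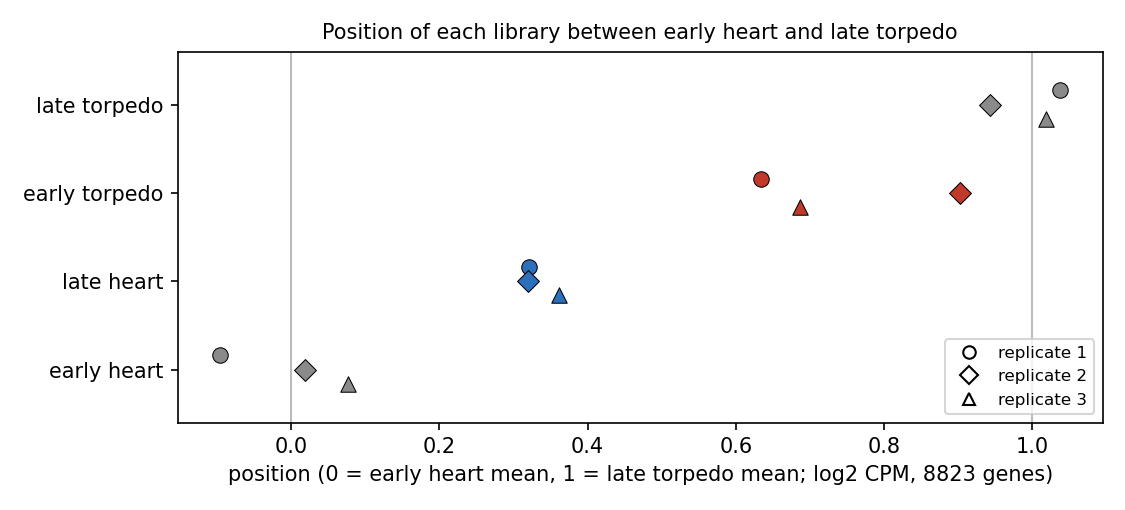
Position of each library on the line from the early heart mean (0) to the late torpedo mean (1), by log2 CPM of 8823 genes, with 1 row per stage and 1 symbol per replicate. Early torpedo replicate 2 sits at 0.903, early torpedo replicates 1 and 3 at 0.634 and 0.686, and the late heart libraries between 0.319 and 0.362.

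In early torpedo 2789 genes were higher and 1211 lower than in late heart, of 21014 tested, with edgeR's quasi-likelihood test fitted over all 24 stage libraries and a Benjamini-Hochberg adjusted p under 0.05. That is 19.0% of the genes tested, with 13.3% higher and 5.76% lower. All 3 early torpedo libraries lay above all 3 late heart libraries for 24.7% of genes and below them for 21.9%. The balance of directions depended on the scale. On the deposited TPM scale, without TMM factors, the median log2 difference of all genes tested was −0.32, and limma on log2(TPM + 1) called 4.73% of genes higher and 39.0% lower, so that 10.8% of its calls were higher, against 69.7% of the edgeR calls. Differences below are relative to the TMM scale, on which the median of all genes was 0.03.

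Leaving out early torpedo replicate 2 lowered the counts to 1557 higher (7.23%) and 388 lower (1.8%). Of the calls made with all libraries, 1472 of the 2789 higher and 323 of the 1211 lower genes kept theirs. Without early torpedo replicate 1 there were 3099 higher (14.4%) and 1819 lower (8.44%), and without early torpedo replicate 3 there were 2399 higher (11.1%) and 1112 lower (5.17%). Leaving out late heart libraries moved the counts as well. Without late heart replicate 1 there were 1037 higher (4.81%) and 243 lower (1.13%). Without late heart replicate 2 there were 1325 higher (6.15%) and 398 lower (1.85%), and without late heart replicate 3 there were 1983 higher (9.21%) and 799 lower (3.71%). Calls thus fell further without late heart replicate 1 than without early torpedo replicate 2. A gene called whichever of the 6 libraries was left out was rarer still, 915 higher (4.35%) and 202 lower (0.961%).

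The counts also differed with the libraries included in a fit. With only the 6 libraries of the comparison, 1831 genes were higher (9.81%) and 505 lower (2.7%). With 5 libraries, early torpedo replicate 2 left out, 4101 were higher (21.4%) and 3012 lower (15.7%). Fewer genes thus passed in the 6 libraries than in the 24, and more passed in the 5 than in either. The number of genes tested also differed, at 21014, 18671 and 19163 in the fits of 24, 6 and 5 libraries. The cause of the change in counts was not tested. The fit of 5 libraries was chosen after seeing the data. Where a list is given below, its calls are counted in the fit of 24 libraries. For some lists only, the text adds the count in the 23 left without early torpedo replicate 2, or in those 5 libraries. In those 5 libraries 21.4% of all genes rose and 15.7% fell. The count from the 6 libraries alone, in which 9.81% rose and 2.7% fell, is added where it differs by more than 1.5 times. A count left out for the 23 or the 5 libraries does not mean that the calls were unchanged. The plot of the percent of each gene list called lower or higher covers the fits of 24, 23 and 5 libraries.

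**Figure D2:**
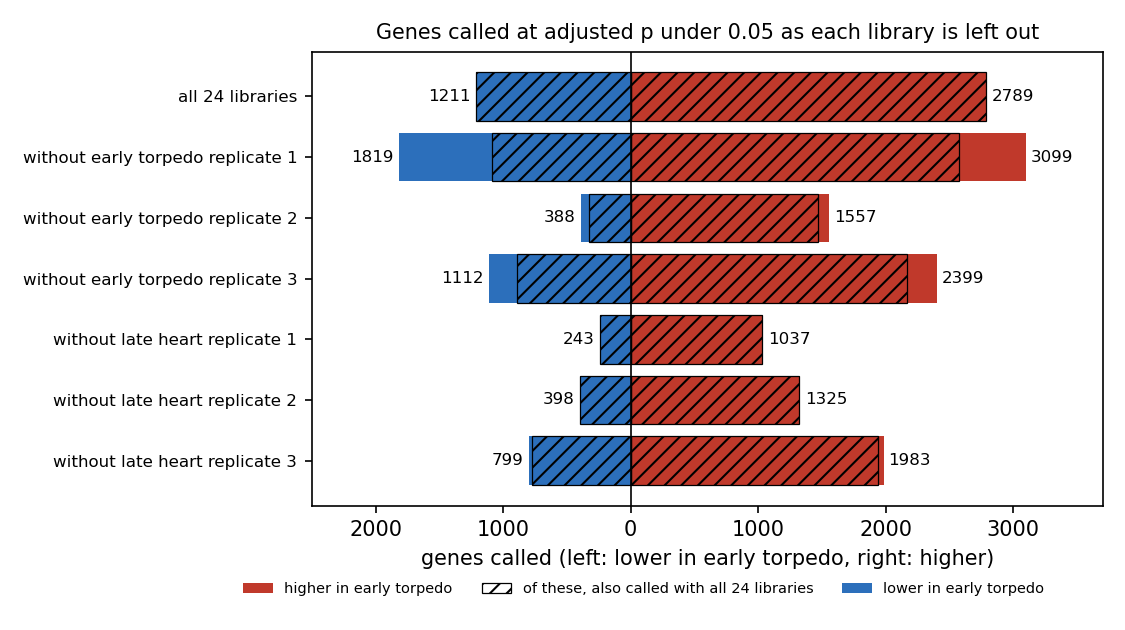
Genes called at an adjusted p under 0.05 (horizontal axis; lower in early torpedo to the left, higher to the right) with all 24 stage libraries and with each of the 6 compared libraries left out. Hatching marks genes also called with all libraries; the bars are shortest without late heart replicate 1, at 1037 and 243 genes, and without early torpedo replicate 2 reach 1557 and 388.

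Early torpedo replicate 2 was most often the library farthest from late heart. It was the highest of its stage in 1866 of the 2789 higher genes and the lowest in 992 of the 1211 lower genes, while over all genes tested it was highest in 41.6% and lowest in 44.5%. The higher and lower genes were called with replicate 2 included, which favours its lying far out, so their shares and those of all genes are not alike. Replicates 1 and 3 were highest in 224 and 699 of the higher genes and lowest in 81 and 138 of the lower ones. It raised the early torpedo mean by more than 1.5 times in 197 of the higher genes. The median log2 fold change of the higher genes was 0.94 with it and 0.79 without it, and that of the lower genes −0.63 and −0.47. Of 2788 higher genes fitted without replicate 2, 2782 kept their sign, as did all 1211 lower genes. Replicates 1 and 3 had a part in calling these genes, so the kept signs are no separate support.

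Seed storage protein genes were higher in early torpedo, and here replicate 2 carried much of the difference. Of 10 genes 7 rose and none fell, against 13.3% and 5.76% of all genes. Without early torpedo replicate 2 the count of rises was 4, without late heart replicate 1 it was 6, in the 6 libraries alone it was 1, and in the 5 libraries it was 4. The albumin and cruciferin genes are near-identical copies in part, so that reads shared between them may have been divided unevenly. In pooled embryos, fewer cells of a type and less RNA per cell cannot be told apart. Oil body protein genes, whose products coat the oil droplet, had 5 rises and no falls among 9, against the same shares of all genes, but 2 rises without early torpedo replicate 2 or with late heart replicate 1 or 2 left out, and 6 in the 5 libraries.

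The region before the start of SESA3, an albumin gene, and OLEO1, the main oleosin gene of the seed, is printed because these genes rose whichever library was left out and because the RY core recurs there. Each line gives 250 bases before the annotated start, 5′ to 3′ on the gene's strand, from RefSeq assembly TAIR10.1. The SESA3 region is chr4:13611546-13611795 (+ strand) and the OLEO1 region chr4:12900180-12900429 (+ strand). Capitals mark the RY core, CATGCA on either strand, which also lies inside the longer RY element CATGCATG, held by 0.776% of all promoters.
SESA3: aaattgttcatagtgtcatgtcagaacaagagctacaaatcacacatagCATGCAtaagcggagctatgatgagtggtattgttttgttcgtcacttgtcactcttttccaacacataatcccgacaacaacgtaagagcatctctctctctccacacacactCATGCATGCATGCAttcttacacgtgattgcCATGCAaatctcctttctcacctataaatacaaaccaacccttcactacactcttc
OLEO1: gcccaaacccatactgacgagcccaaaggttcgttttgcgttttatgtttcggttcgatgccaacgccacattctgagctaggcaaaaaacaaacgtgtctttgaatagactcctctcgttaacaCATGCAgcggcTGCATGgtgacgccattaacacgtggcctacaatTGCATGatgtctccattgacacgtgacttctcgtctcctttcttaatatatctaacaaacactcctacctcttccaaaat
By that search SESA3 had 7 RY cores, several overlapping, and OLEO1 had 3. Among all 27443 promoters of this length 8.43% held at least 1, against 9 of 10 storage protein genes and 9 of 9 oil body genes. The share was 10.6% of the genes called higher in early torpedo and 5.47% of those called lower. A match describes the letters and is not evidence of binding.

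SESA3 (AT4G27160) had 9.89, 30.9 and 14.5 CPM in early torpedo, against 0.172, 0.402 and 0.452 CPM in late heart. Every early torpedo library was far above every late heart library, replicate 2 highest (log2 fold change 5.74, SE 0.72, adjusted p = 4.95e-05; without replicate 2, log2 fold change 5.15, adjusted p = 0.000132). CRA1 (AT5G44120), a cruciferin, depended more on that library. It had 11.4, 109 and 3.85 CPM in early torpedo, against 1.32, 0.833 and 2.61 CPM in late heart. Replicates 1 and 3 stood above late heart but by a small margin next to replicate 2 (log2 fold change 4.71, SE 0.85, adjusted p = 0.00129; without replicate 2, log2 fold change 2.27, adjusted p = 0.00517). SESA1 (AT4G27140) likewise had 5.40, 58.5 and 3.62 CPM in early torpedo, against 1.55, 1.98 and 1.55 CPM in late heart (adjusted p = 0.00306, and 0.0297 without replicate 2). For SESA2 (AT4G27150) replicate 2 decided the result, with 0.412, 24.2 and 0.648 CPM in early torpedo, against 0, 0.0287 and 0.129 CPM in late heart. The other 5 libraries were under 1 CPM each (log2 fold change 7.25, SE 1.59, adjusted p = 0.00436), and the call was lost without replicate 2 (adjusted p = 0.190). The calls of CRU2 (AT1G03880) and SESA4 (AT4G27170), both under 2 CPM in every library, were lost in the same way (adjusted p = 0.129 and 0.145), and that of SESA4 also without late heart replicate 1 (adjusted p = 0.0510). Summed over the 10 storage genes, levels were 27.8, 228 and 23.9 CPM in early torpedo, against 3.25, 3.36 and 4.93 CPM in late heart.

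Oleosin genes differed in how far they rested on 1 library. OLEO1 (AT4G25140) had 81.7, 151 and 104 CPM in early torpedo, against 9.37, 10.5 and 20.7 CPM in late heart. The early torpedo libraries lay well clear of late heart, with replicate 2 highest (log2 fold change 3.05, SE 0.58, adjusted p = 0.00161; without replicate 2, log2 fold change 2.78, adjusted p = 0.00650). AT3G01570, another oleosin family gene, had 79.3, 201 and 123 CPM in early torpedo, against 9.78, 12.3 and 17.8 CPM in late heart. Its pattern was like that of OLEO1 (log2 fold change 3.34, SE 0.56, adjusted p = 0.000609; without replicate 2, log2 fold change 2.93, adjusted p = 0.00286). OLEO2 (AT5G40420) had 246, 455 and 291 CPM in early torpedo, against 96.3, 98.2 and 128 CPM in late heart. The groups did not overlap, but the rise passed narrowly (log2 fold change 1.62, SE 0.56, adjusted p = 0.0462). It was lost without early torpedo replicate 2 (adjusted p = 0.161), early torpedo replicate 3 (0.0596) and each late heart library (0.152, 0.137 and 0.0806), and passed in the 5 libraries (0.000199). OLEO3 (AT5G51210) did not pass (adjusted p = 0.0935), with 691, 896 and 808 CPM in early torpedo, against 262, 308 and 392.1 CPM in late heart. It too passed in the 5 libraries (adjusted p = 0.000539).

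**Figure D3:**
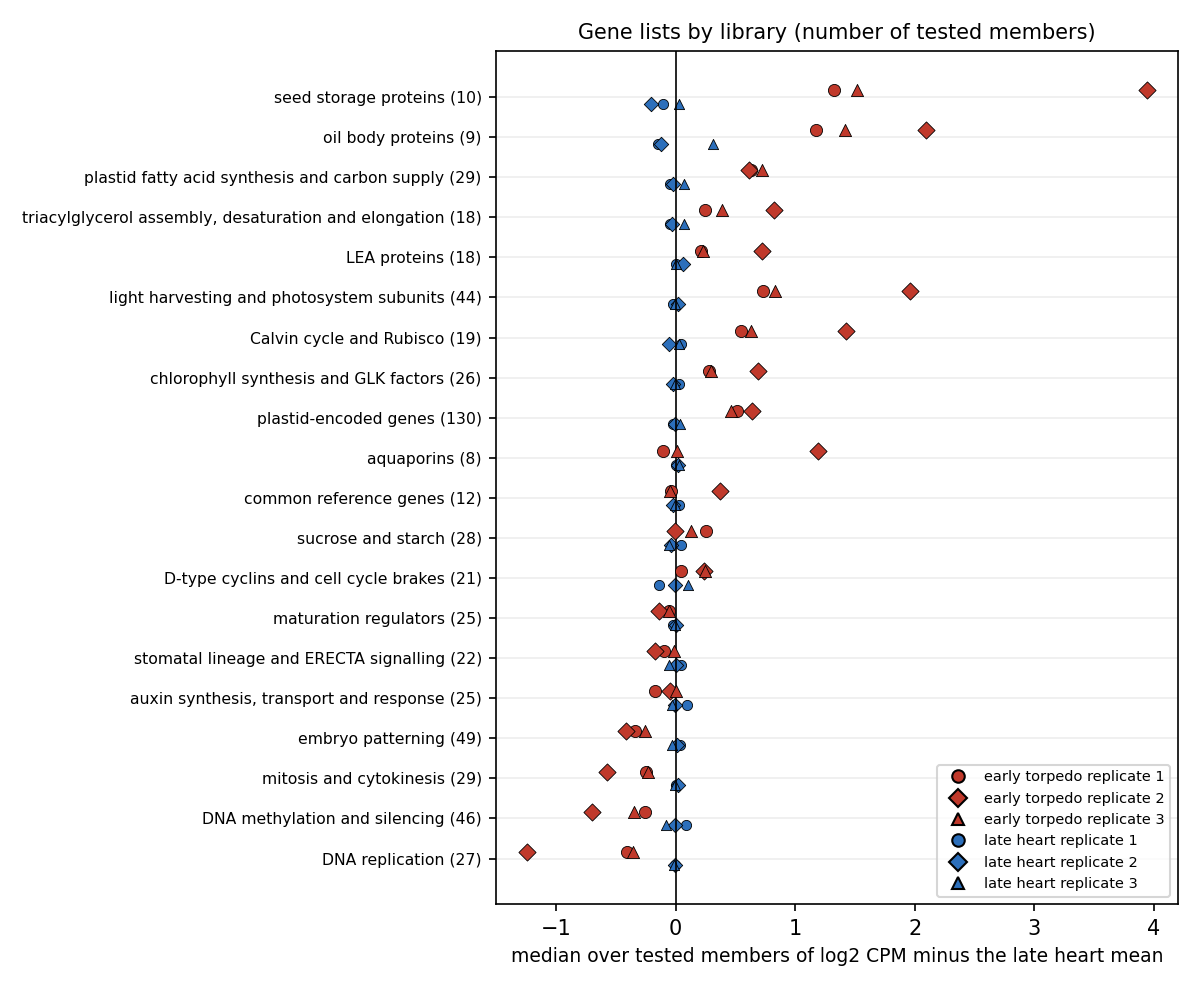
Median over the tested members of each gene list of log2 CPM minus the late heart mean (horizontal axis), in red for the 3 early torpedo and in blue for the 3 late heart libraries, 1 symbol per replicate. Early torpedo replicate 2 is at 3.94 for storage proteins and 1.96 for light harvesting, where replicates 1 and 3 are at 1.32 and 1.52 and at 0.73 and 0.83, while in fatty acid synthesis the 3 early torpedo libraries lie between 0.62 and 0.72.

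Most genes of plastid fatty acid synthesis rose, and early torpedo replicate 2 did not carry the count. Of 29 genes for this pathway and its carbon supply 21 rose and none fell, against 13.3% and 5.76% of all genes. Without replicate 2 the number was again 21, 18 of them the same genes, and in the 5 libraries 27 rose. It was 21 without early torpedo replicate 1 and 18 without replicate 3, and 15, 16 or 19 with late heart replicate 1, 2 or 3 left out. Replicate 2 was the highest early torpedo library for 15 members and the lowest for 13, and the list's median log2 difference per library was 0.63, 0.62 and 0.72. On the TPM scale the list's median was 0.18, which is 0.50 above that of all genes there. Calls by limma on log2(TPM + 1) were fewer, with 6 members higher and 1 lower, against 4.73% and 39.0% of all genes. The RY core stood before 1 of these 29 genes, in contrast to the storage and oil body genes.

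BCCP2 (AT5G15530), the seed-type biotin carrier of acetyl-CoA carboxylase, had 411, 650.4 and 445 CPM in early torpedo, against 194, 204 and 226 CPM in late heart. Each early torpedo library was about 2-fold or more above the late heart mean (log2 fold change 1.27, SE 0.17, adjusted p = 7.78e-05; without replicate 2, log2 fold change 1.04, adjusted p = 0.000341). Acyl carrier proteins, which hold the growing chain, showed replicate 2 on the low side. ACP1 (AT3G05020) had 1321, 756 and 1504 CPM in early torpedo, against 451, 554 and 647 CPM in late heart. Replicate 2 was the lowest early torpedo library, still above late heart (log2 fold change 1.12, SE 0.23, adjusted p = 0.00282; without replicate 2, log2 fold change 1.36, adjusted p = 0.000512). ACP5 (AT5G27200), of the same family, had 345, 406 and 449 CPM in early torpedo, against 76.8, 100.5 and 45.0 CPM in late heart. It was clear of late heart in each replicate (log2 fold change 2.43, SE 0.38, adjusted p = 0.000323; without replicate 2, log2 fold change 2.42, adjusted p = 0.00113).

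At the entry to the pathway replicate 2 was low in several genes. The plastid pyruvate dehydrogenase subunit gene PDH-E1 ALPHA (AT1G01090) had 865, 821 and 892 CPM in early torpedo, against 539, 526 and 550.4 CPM in late heart. It rose whichever library was left out, with early torpedo values close together (log2 fold change 0.67, SE 0.12, adjusted p = 0.000850). Its companion LPD1 (AT3G16950), the plastid dihydrolipoamide dehydrogenase, had 276, 106 and 291 CPM in early torpedo, against 164, 170.3 and 178 CPM in late heart. Replicate 2 lay below late heart while replicates 1 and 3 lay above it, so the gene did not pass with all libraries (log2 fold change 0.39, SE 0.25, adjusted p = 0.259) and passed without replicate 2 (log2 fold change 0.73, adjusted p = 0.00848). ENO1 (AT1G74030), the plastid enolase, and PKP-BETA1 (AT5G52920), a plastid pyruvate kinase subunit, were likewise called only without replicate 2, at adjusted p = 0.0137 and 0.0287 against 0.143 and 0.136 with it. On the TPM scale with all libraries, LPD1, ENO1 and PKP-BETA1 had log2 differences of −0.21, −0.15 and −0.20, each nearer 0 than the median of all genes there. In the elongation cycle MOD1 (AT2G05990), the enoyl reductase, had 750.1, 722 and 782 CPM in early torpedo, against 441, 451 and 501 CPM in late heart. All early torpedo libraries were above all late heart libraries by a similar margin (log2 fold change 0.69, SE 0.13, adjusted p = 0.00125).

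Triacylglycerol assembly, desaturation and elongation genes had 10 rises and no falls among 18, against 13.3% and 5.76% of all genes, with 7 rises without early torpedo replicate 2 and 12 rises and 1 fall in the 5 libraries. Without late heart replicates 1, 2 and 3 the rises numbered 7, 7 and 8, and without early torpedo replicate 1 there was 1 fall. The list's median log2 fold change was 0.56, or 0.31 without replicate 2. On the TPM scale it was 0.37 above the median of all genes. There limma on log2(TPM + 1) called 2 members higher and 4 lower, against 4.73% and 39.0% of all genes. KCS18 (AT4G34520), which lengthens fatty acids to the very long chains of seed oil, had 7.66, 22.5 and 8.85 CPM in early torpedo, against 0, 0.0862 and 0.194 CPM in late heart. It was near 0 in late heart and present in every early torpedo library (log2 fold change 7.09, SE 0.57, adjusted p = 2.03e-06; without replicate 2, log2 fold change 6.44, adjusted p = 2.81e-07). ROD1 (AT3G15820), which passes fatty acids between membrane lipid and oil, had 118, 208 and 141 CPM in early torpedo, against 41.5, 43.1 and 53.8 CPM in late heart. Replicate 2 was highest of 3 libraries that all exceeded late heart (log2 fold change 1.75, SE 0.30, adjusted p = 0.000725; without replicate 2, log2 fold change 1.49, adjusted p = 0.00519). FAD2 (AT3G12120), the oleate desaturase, had 915, 2028 and 946 CPM in early torpedo, against 804, 754 and 793 CPM in late heart. Here replicate 2 was more than 2-fold above replicates 1 and 3, which exceeded late heart by little (log2 fold change 0.73, SE 0.23, adjusted p = 0.0320). The call went without replicate 2 (adjusted p = 0.381) and without any of the late heart libraries (0.0963, 0.103 and 0.0713).

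Regulators of seed maturation went both ways. Of 25 tested of 26, 3 rose and 3 fell, against 13.3% and 5.76% of all genes. Without early torpedo replicate 2 there were 4 rises and 1 fall, and without late heart replicate 1, 2 or 3 there were 3 rises and 1 fall each time, as in the 6 libraries alone. NF-YB6 (AT5G47670), also called LEC1-LIKE, a subunit of the NF-Y factor, rose. It had 132, 188 and 164 CPM in early torpedo, against 20.5, 23.2 and 33.1 CPM in late heart. The groups were far apart and the early torpedo libraries near each other (log2 fold change 2.66, SE 0.37, adjusted p = 0.000116; without replicate 2, log2 fold change 2.53, adjusted p = 0.000512). Its relative LEC1 (AT1G21970) had 186, 188 and 193 CPM in early torpedo, against 182, 197 and 224 CPM in late heart. Here the groups overlapped (log2 fold change −0.09, SE 0.16, adjusted p = 0.720). The bZIP genes EEL (AT2G41070) and DPBF2 (AT3G44460), of a family that binds abscisic acid response elements, rose too. EEL had 43.7, 49.2 and 45.9 CPM in early torpedo, against 18.9, 19.9 and 22.2 CPM in late heart. DPBF2 had 13.2, 11.4 and 13.2 CPM in early torpedo, against 2.47, 3.28 and 3.84 CPM in late heart. Both were higher in each early torpedo library than in any late heart library (adjusted p = 0.00105 and 0.00223).

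The relation of replicate 2 to its stage differed among the other maturation regulators. WRI1 (AT3G54320), which activates fatty acid synthesis genes, had 104, 62.3 and 127 CPM in early torpedo, against 60.2, 68.1 and 83.0 CPM in late heart. Replicate 2 lay inside the late heart range and replicates 1 and 3 above it (log2 fold change 0.48, SE 0.23, adjusted p = 0.148; without replicate 2, log2 fold change 0.72, adjusted p = 0.0436). ABI3 (AT3G24650) had 117, 55.2 and 109 CPM in early torpedo, against 120.3, 126 and 121 CPM in late heart. FUS3 (AT3G26790) had 48.2, 38.7 and 47.7 CPM in early torpedo, against 29.2, 34.6 and 39.1 CPM in late heart. Neither passed (adjusted p = 0.181 and 0.0792), ABI3 being far lower in replicate 2 than in the other 5 libraries. VAL3 (AT4G21550), of a family that represses the maturation program in seedlings, had 5.69, 3.94 and 6.18 CPM in early torpedo, against 10.2, 9.77 and 9.90 CPM in late heart. It was lower in every early torpedo library (log2 fold change −0.91, SE 0.22, adjusted p = 0.00812; without replicate 2, log2 fold change −0.74, adjusted p = 0.0473). BBM (AT5G17430) and PKL (AT2G25170) were called lower with all libraries (adjusted p = 0.0412 and 0.0399) and not without replicate 2 (0.209 and 0.211), nor without late heart replicate 1 (0.0904 and 0.131), 2 (0.0900 and 0.111) or 3 (0.119 and 0.0554). BBM also lost its call without early torpedo replicate 1 (0.0568) and PKL without early torpedo replicate 3 (0.0579).

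Late embryogenesis abundant (LEA) genes, which protect drying seeds, had 3 rises and no falls among 18 tested of 21. That is 16.7% rising, near the 13.3% of all genes. COR47 (AT1G20440) and ERD10 (AT1G20450), dehydrins of cold and drought, rose whichever library was left out, and replicate 2 was their lowest early torpedo library. COR47 had 61.9, 35.6 and 65.7 CPM in early torpedo, against 3.94, 6.95 and 7.80 CPM in late heart. ERD10 had 100.2, 49.3 and 108 CPM in early torpedo, against 18.6, 22.4 and 25.8 CPM in late heart. The groups did not overlap in either gene (log2 fold change without replicate 2 of 3.36 for COR47 and 2.23 for ERD10, against 3.13 and 1.95 with it). SAG21 (AT4G02380) rose with all libraries (adjusted p = 0.0124), and lost the call without early torpedo replicate 2 (0.0786) and without late heart replicate 3 (0.0509).

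**Figure D4:**
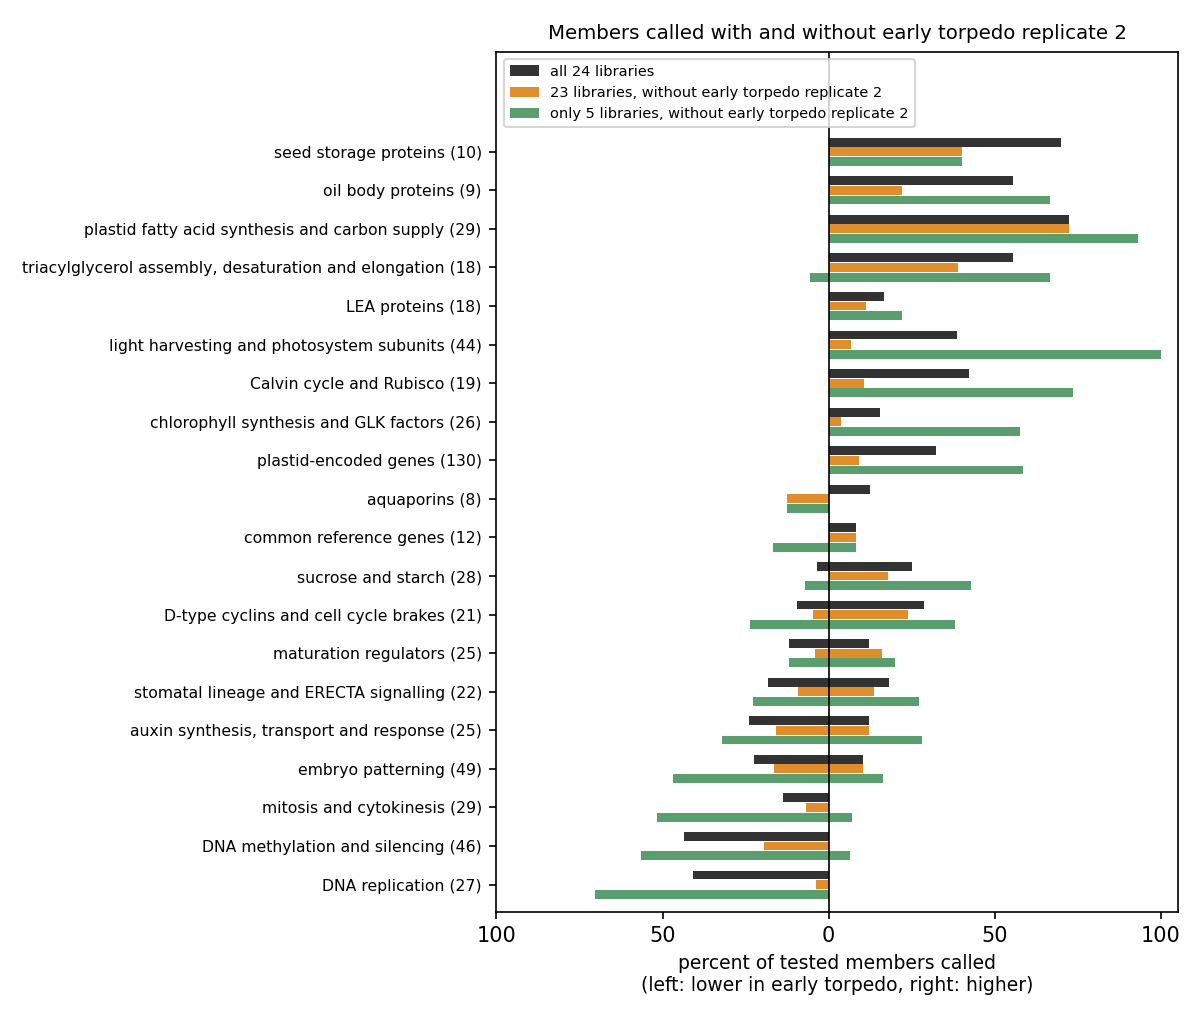
Percent of the tested members of each gene list called lower (left) or higher (right) in early torpedo, with all 24 stage libraries (black), with the 23 left without early torpedo replicate 2 (orange), and with the 5 compared libraries left without it (green). Light harvesting genes go from 38.6% with all libraries to 3 of 44 in the second fit and 44 of 44 in the third, whereas fatty acid synthesis has 21, 21 and 27 of 29.

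Light harvesting and photosystem genes of the nucleus lay higher in every early torpedo library, and replicate 2 was the highest of them by far. All 44 light harvesting and photosystem genes lay above late heart in each early torpedo library, against 24.7% of all genes. Replicate 2 was the highest of the stage in 44 of 44. The test called 17 of them higher and none lower, against 13.3% and 5.76% of all genes. It called 3 higher without replicate 2, where 7.23% of all genes rose, and 44 in the 5 libraries, where 21.4% did. Without early torpedo replicate 1 or 3 it called 28 or 20, and without late heart replicate 1, 2 or 3 it called 4, 5 or 6. The list's median log2 difference per library was 0.73, 1.96 and 0.83, so that replicate 2 was more than 1 log2 unit above the other pair. On the TPM scale the list's median was 0.73, which is 1.04 above that of all genes there. By limma on log2(TPM + 1) 4 members were called higher and none lower, against 4.73% and 39.0% of all genes. As a share of all counts, nuclear photosynthesis genes took 3.48%, 7.96% and 3.43% in early torpedo and 2.62%, 2.56% and 2.52% in late heart. With 3 against 3 libraries an exact two-sided permutation test cannot go below p = 0.1, the value found here.

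The region before LHCB2.3, a light harvesting gene that rose whichever library was left out, is printed at chr3:10255656-10255905 (+ strand) in RefSeq assembly TAIR10.1, with capitals for the G-box, CACGTG on either strand, a motif known from light-regulated promoters.
LHCB2.3: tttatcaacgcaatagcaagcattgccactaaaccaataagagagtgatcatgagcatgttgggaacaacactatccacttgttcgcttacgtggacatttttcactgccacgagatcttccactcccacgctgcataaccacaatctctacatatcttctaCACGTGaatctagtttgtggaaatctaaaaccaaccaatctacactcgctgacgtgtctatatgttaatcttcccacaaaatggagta
A G-box stood in 8 of 44 light harvesting promoters, against 6.49% of all promoters of this length. The shorter letters ACGTG, the core of the abscisic acid response element, lie inside every G-box and stood in 18 of 44 and in 22.9% of all promoters.

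LHCB2.3 (AT3G27690) had 44.2, 314 and 44.1 CPM in early torpedo, against 15.5, 14.8 and 13.5 CPM in late heart. Replicates 1 and 3 were nearly equal and about 3-fold above late heart, replicate 2 far above both (log2 fold change 3.20, SE 0.59, adjusted p = 0.00123; without replicate 2, log2 fold change 1.59, adjusted p = 0.00746). LHCB2.2 (AT2G05070), a close copy with which reads may be shared, had 211, 1070.1 and 203 CPM in early torpedo, against 59.6, 61.1 and 53.2 CPM in late heart. Its libraries fell in the same order of groups (log2 fold change 3.09, SE 0.65, adjusted p = 0.00316; without replicate 2, log2 fold change 1.84, adjusted p = 0.0298). CAB2 (AT1G29920) and CAB3 (AT1G29910), neighbouring chlorophyll a/b binding protein genes of nearly the same sequence, depended on replicate 2. CAB2 had 418, 1479.9 and 342 CPM in early torpedo, against 139, 175 and 149 CPM in late heart. CAB3 had 672, 2719 and 711 CPM in early torpedo, against 231, 393 and 398 CPM in late heart. The groups did not overlap, yet the calls (adjusted p = 0.0195 and 0.0222) were lost without replicate 2 (0.179 and 0.238). They were lost also without late heart replicate 1 (0.0900 and 0.112) or 2 (0.0623 and 0.0640), and that of CAB2 without late heart replicate 3 (0.0591, against 0.0495 for CAB3). In the 5 libraries both passed (0.000131 and 0.00496). LHCB2.1 (AT2G05100) and PSAO (AT1G08380), a photosystem I subunit, were called higher with all libraries (adjusted p = 0.0400 and 0.0373) and not without replicate 2 (0.297 and 0.234) or late heart replicate 1 (0.135 and 0.125), 2 (0.100 and 0.108) or 3 (0.0974 and 0.0847).

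Calvin cycle and Rubisco genes had 8 rises and no falls among 19, against 13.3% and 5.76% of all genes. There were 2 rises without replicate 2 (7.23% of all genes), 5 in the 6 libraries alone and 14 in the 5 libraries (21.4% of all genes). Leaving out late heart replicates 1, 2 and 3 gave 5, 4 and 4 rises, and replicate 2 was the highest early torpedo library in all 19. RBCS3B (AT5G38410), a small subunit of Rubisco with close copies beside it, had 76.4, 516 and 54.3 CPM in early torpedo, against 24.04, 22.01 and 19.9 CPM in late heart. Its early torpedo mean was 9.80-fold that of late heart, or 2.97-fold without replicate 2 (log2 fold change 3.29, SE 0.68, adjusted p = 0.00281; without replicate 2, log2 fold change 1.57, adjusted p = 0.0357). RBCS1A (AT1G67090), another small subunit gene, had 3195, 9586 and 3416 CPM in early torpedo, against 1898, 1881 and 2016 CPM in late heart. No early torpedo library overlapped late heart (log2 fold change 1.48, SE 0.48, adjusted p = 0.0358). Without replicate 2 the adjusted p was 0.311, and leaving out each late heart library in turn gave 0.117, 0.107 and 0.0784. EMB3119 (AT3G04790), the ribose-5-phosphate isomerase of the cycle, had even values. It had 114, 127 and 120.0 CPM in early torpedo, against 62.1, 65.2 and 76.8 CPM in late heart. The rise did not rest on replicate 2 (log2 fold change 0.82, SE 0.18, adjusted p = 0.00490; without replicate 2, log2 fold change 0.78, adjusted p = 0.0190).

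Chlorophyll synthesis genes and their GLK regulators had 4 rises among 26, 15.4% against 13.3% of all genes, with 1 without replicate 2, none without late heart replicate 1 or 2, 1 without late heart replicate 3, and 15 in the 5 libraries. The list's median log2 fold change was 0.42, or −0.07 on the TPM scale, which is 0.25 above the median of all genes there. GPRI1 (AT2G20570), the transcription factor also called GLK1 that promotes chloroplast genes, had 31.0, 39.9 and 34.7 CPM in early torpedo, against 16.6, 15.3 and 16.9 CPM in late heart. It was about 2-fold higher in each early torpedo library (log2 fold change 1.11, SE 0.30, adjusted p = 0.0141; without replicate 2, log2 fold change 1.01, adjusted p = 0.0414). Leaving out late heart replicate 1 or 2 ended the call (adjusted p = 0.0613 and 0.0640). Plastid-encoded genes had 42 rises and no falls among 130 tested of 133, against 13.3% and 5.76% of all genes, with 12 rises without replicate 2 and 76 in the 5 libraries. With late heart replicate 1, 2 or 3 left out, 11, 14 or 25 rose. Their median log2 fold change was 0.53, or 0.50 without replicate 2, and on the TPM scale it was 0.32 above the median of all genes. On that scale limma on log2(TPM + 1) called 6 of the plastid-encoded genes higher and 4 lower, against 4.73% and 39.0% of all genes. As a share of counts they took 2.73%, 2.57% and 2.72% in early torpedo and 2.22%, 2.15% and 2.19% in late heart. Mitochondrion-encoded genes took 1.30%, 1.1% and 1.36% in early torpedo and 1.99%, 1.94% and 1.65% in late heart. Of 121 of them tested none was called either way with all libraries, and in the 5 libraries 2 rose and 9 fell. How far priming on the poly(A) tail captures organelle transcripts was not tested, so the organelle values describe only these libraries.

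DNA replication genes were lower in early torpedo, and here too replicate 2 was the farthest library. Of 27 genes 11 fell and none rose, against 5.76% and 13.3% of all genes. Replicate 2 was the lowest early torpedo library in 27 of 27. Without it 1 gene fell, in the 6 libraries alone 2 fell, and in the 5 libraries 19 fell. Leaving out late heart replicate 1, 2 or 3 gave 2, 3 or 7 falls. The early torpedo libraries lay below all late heart libraries in 20 of the 27, against 21.9% of all genes. Replicates 1 and 3 alone did so in 20 as well, but no share of all genes is given for that pair. That count therefore cannot be weighed. The list's median log2 difference per library was −0.41, −1.24 and −0.36.

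Regions before 3 of the genes that fell are printed, because an E2F site recurs in this list, with the E2F site in capitals, the letters TTTCCCGC or TTTGGCGC on either strand, a motif through which E2F factors are known to drive genes of DNA synthesis. The MCM2 region is chr1:16969964-16970213 (+ strand), that of MCM6 chr5:18010668-18010917 (− strand) and that of FAS1 chr1:24324092-24324341 (− strand), in RefSeq assembly TAIR10.1.
MCM2: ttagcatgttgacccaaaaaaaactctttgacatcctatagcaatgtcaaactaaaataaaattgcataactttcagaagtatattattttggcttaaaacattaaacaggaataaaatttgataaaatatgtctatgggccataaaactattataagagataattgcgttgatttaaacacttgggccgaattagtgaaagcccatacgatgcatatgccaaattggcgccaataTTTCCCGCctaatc
MCM6: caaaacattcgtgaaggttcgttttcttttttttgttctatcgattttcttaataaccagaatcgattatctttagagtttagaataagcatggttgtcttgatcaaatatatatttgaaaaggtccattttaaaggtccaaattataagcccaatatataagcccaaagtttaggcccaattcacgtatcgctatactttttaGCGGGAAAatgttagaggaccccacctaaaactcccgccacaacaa
FAS1: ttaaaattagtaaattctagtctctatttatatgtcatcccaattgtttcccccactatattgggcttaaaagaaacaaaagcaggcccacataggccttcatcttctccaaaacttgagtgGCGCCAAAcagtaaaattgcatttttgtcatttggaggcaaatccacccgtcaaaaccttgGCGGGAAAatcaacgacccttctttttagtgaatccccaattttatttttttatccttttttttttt
FAS1 had 2 such sites, MCM2 and MCM6 1 each. Of the 27 replication promoters 9 held at least 1, against 0.958% of all promoters, 2.24% of the genes called lower and 0.858% of those called higher.

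MCM2 (AT1G44900), a subunit of the helicase that opens DNA for copying, had 76.0, 24.3 and 66.5 CPM in early torpedo, against 101, 99.5 and 95.5 CPM in late heart. Replicate 2 was far below the other libraries of its stage, which lay closer to late heart (log2 fold change −0.83, SE 0.27, adjusted p = 0.0367). MCM6 (AT5G44635), of the same helicase, had 43.8, 13.1 and 45.8 CPM in early torpedo, against 62.7, 62.6 and 63.3 CPM in late heart. The late heart libraries were nearly equal and all early torpedo libraries below them (log2 fold change −0.88, SE 0.30, adjusted p = 0.0433). Both calls were lost without replicate 2 (adjusted p = 0.116 and 0.132) and without late heart replicate 1 (0.108 and 0.114), 2 (0.0939 and 0.102) or 3 (0.0660 and 0.0843). FAS1 (AT1G65470), of the complex that loads histones on new DNA, had 23.2, 9.36 and 22.9 CPM in early torpedo, against 31.7, 34.02 and 30.4 CPM in late heart. Its call (log2 fold change −0.79, SE 0.27, adjusted p = 0.0461) was lost in the same 4 fits, at adjusted p = 0.206, 0.118, 0.126 and 0.0756. ORC1B (AT4G12620), of the complex that marks replication origins, kept its call whichever library was left out. It had 12.03, 9.61 and 13.7 CPM in early torpedo, against 18.8, 19.6 and 19.1 CPM in late heart. Each early torpedo library was below late heart, replicate 2 by the most (log2 fold change −0.70, SE 0.16, adjusted p = 0.00609; without replicate 2, log2 fold change −0.57, adjusted p = 0.0318).

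Mitosis and cytokinesis genes had 4 falls and no rises among 29, 13.8% falling against 5.76% of all genes. There were 2 falls without replicate 2, and 15 falls and 2 rises in the 5 libraries, where 15.7% of all genes fell. Dropping late heart replicate 1, 2 or 3 gave 1, 2 or 3 falls. CYCB1;3 (AT3G11520), a cyclin of the entry into mitosis, had 48.7, 41.2 and 52.2 CPM in early torpedo, against 87.1, 84.9 and 76.4 CPM in late heart. The groups were apart and the early torpedo libraries close (log2 fold change −0.81, SE 0.15, adjusted p = 0.00168; without replicate 2, log2 fold change −0.72, adjusted p = 0.00771). HIK (AT1G18370), a kinesin of cell plate formation, had 39.3, 15.98 and 36.6 CPM in early torpedo, against 56.8, 55.5 and 50.02 CPM in late heart. Its call (adjusted p = 0.0412) was lost without replicate 2 (0.187) and whichever late heart library was left out (0.125, 0.107 and 0.0641). Core histone genes had 1 rise among 19, 5.26% against 13.3% of all genes, and none without late heart replicate 1 or 2 or in the 6 libraries alone. Of 21 D-type cyclins and cell cycle brakes 6 rose and 2 fell, against 13.3% and 5.76% of all genes, with 3 and 2 without early torpedo replicate 3, and 1 and 0, 2 and 0 or 4 and 0 with late heart replicate 1, 2 or 3 left out. Without early torpedo replicate 1 or 2 there were 5 rises and 1 fall each, and in the 6 libraries alone 2 rises and 1 fall. The list's median log2 fold change was 0.28, or −0.15 on the TPM scale, which is 0.17 above the median of all genes there. KRP6 (AT3G19150), an inhibitor of cyclin-dependent kinases, had 9.48, 6.503 and 8.92 CPM in early torpedo, against 2.59, 3.96 and 4.16 CPM in late heart. It was higher in each early torpedo library (log2 fold change 1.22, SE 0.30, adjusted p = 0.00896; without replicate 2, log2 fold change 1.37, adjusted p = 0.00886), and missed the threshold when late heart replicate 1 was left out (adjusted p = 0.0685).

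Of 46 DNA methylation and silencing genes 20 fell and none rose, against 5.76% and 13.3% of all genes, with 9 falls without replicate 2, 9 in the 6 libraries alone, and 26 falls and 3 rises in the 5 libraries. With late heart replicate 1, 2 or 3 left out the falls were 8, 9 or 17. Replicate 2 was the lowest early torpedo library in 37, and the median log2 difference per library was −0.25, −0.70 and −0.35. Some members did not depend on it. AGO9 (AT5G21150), an Argonaute protein that binds small RNAs directing DNA methylation, had 13.6, 8.27 and 7.74 CPM in early torpedo, against 53.8, 40.9 and 29.6 CPM in late heart. Late heart itself spread widely, yet all of it lay above early torpedo (log2 fold change −2.07, SE 0.25, adjusted p = 4.11e-05; without replicate 2, log2 fold change −1.96, adjusted p = 0.000364). AGO5 (AT2G27880), of the same family, had 2.101, 2.52 and 2.71 CPM in early torpedo, against 13.6, 10.2 and 5.87 CPM in late heart. It was lower in each early torpedo library (log2 fold change −2.02, SE 0.30, adjusted p = 0.000245; without replicate 2, log2 fold change −2.04, adjusted p = 0.00130). AGO1 (AT1G48410), the main Argonaute of microRNAs, had 199, 195 and 191 CPM in early torpedo, against 359.9, 313 and 280.3 CPM in late heart. Early torpedo libraries were within a few percent of each other and below late heart (log2 fold change −0.70, SE 0.15, adjusted p = 0.00350; without replicate 2, log2 fold change −0.70, adjusted p = 0.0137).

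CHR1 (AT5G66750), the chromatin remodeller also called DDM1, had 52.9, 23.8 and 52.1 CPM in early torpedo, against 83.8, 76.2 and 74.0 CPM in late heart. Replicate 2 was lowest, with replicates 1 and 3 between it and late heart (log2 fold change −0.86, SE 0.20, adjusted p = 0.00707; without replicate 2, log2 fold change −0.57, adjusted p = 0.0137). CMT3 (AT1G69770), which methylates cytosines outside CG sites, had 60.2, 30.5 and 51.7 CPM in early torpedo, against 93.9, 89.9 and 77.1 CPM in late heart. The order was the same (log2 fold change −0.87, SE 0.21, adjusted p = 0.00724; without replicate 2, log2 fold change −0.64, adjusted p = 0.0294). MET1 (AT5G49160), the methyltransferase of CG sites, had 45.3, 29.2 and 40.2 CPM in early torpedo, against 62.6, 59.2 and 57.3 CPM in late heart. Its fall (log2 fold change −0.64, SE 0.18, adjusted p = 0.0165) was lost without replicate 2 (adjusted p = 0.0864), late heart replicate 1 (0.0725) and late heart replicate 2 (0.0508).

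Embryo patterning genes went both ways, with 5 rises and 11 falls among 49 tested of 50, against 13.3% and 5.76% of all genes. Replicate 2 carried little of this: without it 5 rose and 8 fell, all 8 among the falls with all libraries, and the list's median log2 fold change was −0.33, against −0.34 with it. With late heart replicate 1 or 2 left out there were 2 rises and 5 falls or 3 and 7, without early torpedo replicate 3 there were 3 and 10, and in the 5 libraries 8 and 23. The shoot apex and organ boundary genes were among the falls. STM (AT1G62360), which keeps the shoot meristem, had 7.21, 8.27 and 5.95 CPM in early torpedo, against 16.04, 13.3 and 13.3 CPM in late heart. Replicate 2 was the highest early torpedo library and still below late heart (log2 fold change −0.99, SE 0.23, adjusted p = 0.00654; without replicate 2, log2 fold change −1.11, adjusted p = 0.0114). CUC2 (AT5G53950), which separates the cotyledons, had 3.34, 1.34 and 2.29 CPM in early torpedo, against 10.3, 10.2 and 8.71 CPM in late heart. The groups were far apart (log2 fold change −2.07, SE 0.37, adjusted p = 0.000937; without replicate 2, log2 fold change −1.79, adjusted p = 0.00671). CUC1 (AT3G15170), its partner, had 2.68, 2.01 and 2.56 CPM in early torpedo, against 9.98, 8.10 and 7.26 CPM in late heart (adjusted p = 0.0107, and 0.0534 without late heart replicate 1).

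Other members of the embryo patterning list moved in each direction. MP (AT1G19850), the auxin response factor that starts root and vessels, had 126, 88.2 and 112 CPM in early torpedo, against 243, 224 and 187 CPM in late heart. It was lower in each early torpedo library (log2 fold change −1.01, SE 0.17, adjusted p = 0.000549; without replicate 2, log2 fold change −0.88, adjusted p = 0.00394). SCR (AT3G54220), of the ground tissue, had 76.5, 78.5 and 79.6 CPM in early torpedo, against 126, 118 and 118 CPM in late heart. Its early torpedo values were almost equal (log2 fold change −0.62, SE 0.12, adjusted p = 0.00202; without replicate 2, log2 fold change −0.63, adjusted p = 0.00746). SMB (AT1G79580), a root cap factor, had 30.4, 21.3 and 34.2 CPM in early torpedo, against 4.89, 7.38 and 11.2 CPM in late heart. Early torpedo libraries lay above late heart, replicate 2 the lowest of them (log2 fold change 1.88, SE 0.34, adjusted p = 0.00148; without replicate 2, log2 fold change 2.05, adjusted p = 0.00185). AS2 (AT1G65620), which sets the upper side of leaves, had 16.97, 19.9 and 17.8 CPM in early torpedo, against 8.86, 8.65 and 8.45 CPM in late heart. This was an even rise of about 2-fold (log2 fold change 1.07, SE 0.26, adjusted p = 0.00843; without replicate 2, log2 fold change 1.01, adjusted p = 0.0305).

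Genes of the stomatal lineage also split. Of 22 tested 4 rose and 4 fell, with 3 and 2 without replicate 2, and 2 and 3 or 2 and 2 with late heart replicate 1 or 2 left out. The rises, 18.18% of those tested, were near the 13.3% of all genes, and the falls, also 18.18%, stood against 5.76%. ERL2 (AT5G07180), a receptor kinase of stomatal spacing, had 92.2, 44.0 and 65.7 CPM in early torpedo, against 195, 167 and 143 CPM in late heart. Early torpedo was below late heart throughout, replicate 2 lowest (log2 fold change −1.32, SE 0.22, adjusted p = 0.000567; without replicate 2, log2 fold change −1.09, adjusted p = 0.00327). ERL1 (AT5G62230), its close relative, had 56.4, 26.4 and 48.3 CPM in early torpedo, against 112, 99.0 and 90.6 CPM in late heart (adjusted p = 0.00224, and 0.0111 without replicate 2). In the other direction TMM (AT1G80080), the receptor-like protein that works with them, had 2.14, 9.23 and 5.76 CPM in early torpedo, against 1.18, 0.805 and 0.484 CPM in late heart. Levels were low and each early torpedo library was above late heart (log2 fold change 2.78, SE 0.42, adjusted p = 0.000264; without replicate 2, log2 fold change 2.25, adjusted p = 0.00175). STOMAGEN (AT4G12970), a peptide that promotes stomata, had 1.24, 5.16 and 1.94 CPM in early torpedo and 1 count in each late heart library (adjusted p = 5.15e-05, and 8.85e-05 without replicate 2).

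Hormone lists differed in their calls. Auxin genes had 3 rises and 6 falls among 25 tested of 28, where 13.3% and 5.76% of all genes rose and fell. There were 3 and 4 without replicate 2, 4 and 3 in the 6 libraries alone, and 1 and 1 or 1 and 2 with late heart replicate 1 or 2 left out. ARF4 (AT5G60450), an auxin response factor, had 17.5, 12.6 and 15.0 CPM in early torpedo, against 30.2, 25.9 and 26.7 CPM in late heart. It fell in each early torpedo library relative to late heart (log2 fold change −0.88, SE 0.15, adjusted p = 0.000736; without replicate 2, log2 fold change −0.76, adjusted p = 0.00549). Of 24 abscisic acid genes tested 1 rose, CYP707A1 (AT4G19230), which breaks down abscisic acid, and of 25 gibberellin genes 3 rose, with no falls, against the 13.3% of all genes that rose. The first call was lost whichever late heart library was left out (adjusted p = 0.0633, 0.0560 and 0.0722). Gibberellin genes had 1 rise without early torpedo replicate 2, late heart replicate 1 or late heart replicate 2. With any single early torpedo library left out, 1 gibberellin gene was called lower. In the 5 libraries 6 gibberellin genes rose and 5 fell. The median log2 fold change of the gibberellin list was 0.377, or −0.115 without replicate 2. GA20OX3 (AT5G07200), an enzyme of gibberellin synthesis, had 16.1, 17.62 and 23.1 CPM in early torpedo, against 5.06, 7.76 and 6.22 CPM in late heart. The groups did not overlap (log2 fold change 1.58, SE 0.35, adjusted p = 0.00473; without replicate 2, log2 fold change 1.63, adjusted p = 0.00881). WOL (AT2G01830), a cytokinin receptor outside these lists and among the 12 largest falls named by rule, had 28.0, 12.4 and 25.6 CPM in early torpedo, against 51.4, 50.8 and 49.1 CPM in late heart. Replicate 2 was lowest (log2 fold change −1.20, SE 0.22, adjusted p = 0.00119; without replicate 2, log2 fold change −0.91, adjusted p = 0.00319). PUP4 (AT1G30840), of a family of purine carriers, had 113, 123 and 132 CPM in early torpedo, against 286, 274 and 271 CPM in late heart. Here replicate 2 lay between the other early torpedo libraries (log2 fold change −1.18, SE 0.21, adjusted p = 0.00111; without replicate 2, log2 fold change −1.18, adjusted p = 0.00576).

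Sucrose and starch genes had 7 rises and 1 fall among 28 tested of 30, where 13.3% and 5.76% of all genes rose and fell. There were 5 and 0 without replicate 2, and 2 and 0 in the 6 libraries alone. With late heart replicate 1, 2 or 3 left out there were 1 and 0, 2 and 0, or 3 and 1. The list's median log2 fold change was 0.18, or −0.29 on the TPM scale, which is 0.03 above the median of all genes there. SWEET11 (AT3G48740), a sucrose exporter known from the seed coat and endosperm that feed the embryo, had 9.31, 31.4 and 26.4 CPM in early torpedo, against 0.489, 0.776 and 0.645 CPM in late heart. It was under 1 CPM in each late heart library and 9.31 CPM or more in each early torpedo library (log2 fold change 5.12, SE 0.44, adjusted p = 3.26e-06; without replicate 2, log2 fold change 4.80, adjusted p = 6.33e-06). SAG29 (AT5G13170), an exporter of the same family also called SWEET15, had 5.60, 11.2 and 12.5 CPM in early torpedo, against 3.48, 5.37 and 3.35 CPM in late heart. The groups did not overlap (adjusted p = 0.00709), and the call was lost without late heart replicate 1 (0.0517). Endosperm markers, summed, stood at 5.85, 12.1 and 11.5 CPM in early torpedo, against 3.48, 4.54 and 4.06 CPM in late heart, and their part in these rises was not tested. PCK1 (AT4G37870), which makes sugar from stored reserves and was also among those 12 falls, had 118, 79.7 and 136 CPM in early torpedo, against 241, 210.1 and 232 CPM in late heart. Each early torpedo library was below late heart (log2 fold change −1.03, SE 0.23, adjusted p = 0.00437; without replicate 2, log2 fold change −0.84, adjusted p = 0.0291).

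Of 28 protoderm and cuticle genes tested of 31, 5 rose and 3 fell, where 13.3% and 5.76% of all genes did. There were 1 and 2 in the 6 libraries alone, 1 and 3 without early torpedo replicate 2 or without late heart replicate 1 or 2, and 3 and 3 without late heart replicate 3. LTP4 (AT5G59310) and LTP3 (AT5G59320), neighbouring lipid transfer protein genes of similar sequence, went opposite ways. LTP4 had 6.63, 12.8 and 10.2 CPM in early torpedo, against 0.0862, 0.172 and 0.29 CPM in late heart. LTP3 had 12.8, 10.7 and 9.68 CPM in early torpedo, against 34.9, 37.5 and 40.7 CPM in late heart. Both calls held whichever library was left out (adjusted p = 1.97e-05 and 0.000274, and 5.95e-05 and 0.00191 without replicate 2), though reads shared by the pair may have been divided unevenly. Of 16 cell wall genes tested of 17, 2 rose and none fell, 12.5% rising against 13.3% of all genes, with none called without late heart replicate 1 or 2 and 1 with any single early torpedo library left out. Among 8 aquaporin genes the 1 rise was PIP2A (AT3G53420), a water channel of the plasma membrane. That is 12.5% rising, against 13.3% of all genes. The list had 2 rises without early torpedo replicate 1 and none in the 6 libraries alone. PIP2A had 0.989, 36.6 and 1.56 CPM in early torpedo, against 1.06, 1.15 and 1.23 CPM in late heart. Replicate 2 alone of the 6 was above 2 CPM, with the others at about the same level (log2 fold change 3.5, SE 0.90, adjusted p = 0.0114). Without it the log2 fold change was 0.16 (adjusted p = 0.897), and the call was lost too without late heart replicate 1 (0.0628) or 2 (0.0519). PIP1A (AT3G61430), a related channel, had 4.94, 18.8 and 4.003 CPM in early torpedo, against 8.71, 8.10 and 8.80 CPM in late heart. With replicate 2 above and replicates 1 and 3 below late heart, it did not pass (adjusted p = 0.860) and was called lower without replicate 2 (log2 fold change −0.93, adjusted p = 0.0299).

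Of 21 heat, touch and wound genes tested of 22, 3 rose and none fell, 14.3% rising against 13.3% of all genes, with 5 rises without early torpedo replicate 3. HSP70 (AT3G12580), a heat-inducible chaperone gene, had 118, 118 and 56.9 CPM in early torpedo, against 13.8, 32.9 and 20.09 CPM in late heart. Replicates 1 and 2 were about equal and replicate 3 lower, all above late heart (log2 fold change 2.13, SE 0.40, adjusted p = 0.00130; without replicate 2, log2 fold change 1.97, adjusted p = 0.00675). AOS (AT5G42650), of jasmonate synthesis, had 10.7, 14.9 and 8.62 CPM in early torpedo, against 3.02, 3.68 and 3.71 CPM in late heart (adjusted p = 0.00378, and 0.0219 without replicate 2). The 12 largest rises named by rule also held enzymes of oxidative stress, outside the lists. CSD1 (AT1G08830), a copper/zinc superoxide dismutase, had 60.9, 69.0 and 93.3 CPM in early torpedo, against 19.9, 7.73 and 18.3 CPM in late heart. MSRB9 (AT4G21850), which repairs oxidised methionine, had 68.4, 123 and 84.8 CPM in early torpedo, against 10.6, 15.0 and 18.6 CPM in late heart. The groups were far apart in both (adjusted p = 9.62e-05 and 0.000303, and 0.000283 and 0.00130 without replicate 2). NIT2 (AT3G44300), a nitrilase, had 125, 309 and 143 CPM in early torpedo, against 33.6, 39.5 and 47.8 CPM in late heart. Replicate 2 was more than 2-fold above its stage's other libraries, which were about 3-fold above late heart (log2 fold change 2.25, SE 0.42, adjusted p = 0.00123; without replicate 2, log2 fold change 1.73, adjusted p = 0.00875). DIC2 (AT4G24570), a mitochondrial dicarboxylate carrier, had 26.6, 13.2 and 16.7 CPM in early torpedo, against 46.7, 61.8 and 44.0 CPM in late heart. It fell in early torpedo with replicate 2 lowest (log2 fold change −1.43, SE 0.35, adjusted p = 0.00815; without replicate 2, log2 fold change −1.23, adjusted p = 0.0466).

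Other genes named by rule lay outside the lists. Among the 12 largest rises that held whichever library was left out, STR18 (AT5G66170), a sulfurtransferase, had 38.4, 66.3 and 54.0 CPM in early torpedo, against 7.47, 9.60 and 12.7 CPM in late heart. The groups were far apart (log2 fold change 2.42, SE 0.30, adjusted p = 4.11e-05; without replicate 2, log2 fold change 2.22, adjusted p = 0.000208). Among the 12 largest such falls, CEL2 (AT1G02800), a cellulase, had 76.8, 75.0 and 55.9 CPM in early torpedo, against 157, 133 and 116 CPM in late heart. Replicate 2 was level with replicate 1 (log2 fold change −0.97, SE 0.19, adjusted p = 0.00187; without replicate 2, log2 fold change −1.03, adjusted p = 0.00421). RD21B (AT5G43060), a cysteine protease, had 54.8, 45.7 and 51.5 CPM in early torpedo, against 99.9, 92.9 and 94.5 CPM in late heart. All 3 early torpedo libraries were close together and below late heart (log2 fold change −0.92, SE 0.14, adjusted p = 0.000245; without replicate 2, log2 fold change −0.85, adjusted p = 0.00118). These rules also named MEE26 (AT2G34870) among the rises and NEK2 (AT3G04810) and TMKL1 (AT3G24660) among the falls, with log2 fold changes of 2.16, −1.01 and −0.86.

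Of genes called with all libraries but not without replicate 2, some moved as much in replicates 1 and 3. AP2 (AT4G36920), a regulator of seed size and flower organs, had 38.1, 32.5 and 38.5 CPM in early torpedo, against 67.9, 67.9 and 59.7 CPM in late heart. Its libraries were close within each stage (log2 fold change −0.84, SE 0.24, adjusted p = 0.0185), yet the adjusted p was 0.0605 without replicate 2, and 0.0742 or 0.0651 with late heart replicate 1 or 2 left out. In the 5 libraries it was 0.000299. CYP78A5 (AT1G13710), a cytochrome P450 also called KLUH that promotes organ growth, had 47.7, 47.5 and 33.2 CPM in early torpedo, against 79.5, 94.8 and 72.4 CPM in late heart. Replicate 2 was level with replicate 1 and replicate 3 was lowest (log2 fold change −0.94, SE 0.29, adjusted p = 0.0274). The adjusted p was 0.0551 without early torpedo replicate 2, 0.0902 without early torpedo replicate 3, and 0.0758 or 0.105 with late heart replicate 1 or 2 left out. LCR69 (AT2G02100), a small cysteine-rich protein of the defensin family, had 184, 522 and 317 CPM in early torpedo, against 78.2, 92.6 and 88.2 CPM in late heart. Here replicate 2 was highest and all early torpedo libraries exceeded late heart (log2 fold change 1.98, SE 0.51, adjusted p = 0.0120). The adjusted p was 0.0669 without replicate 2 and 0.0660 without late heart replicate 1.

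**Figure D5:**
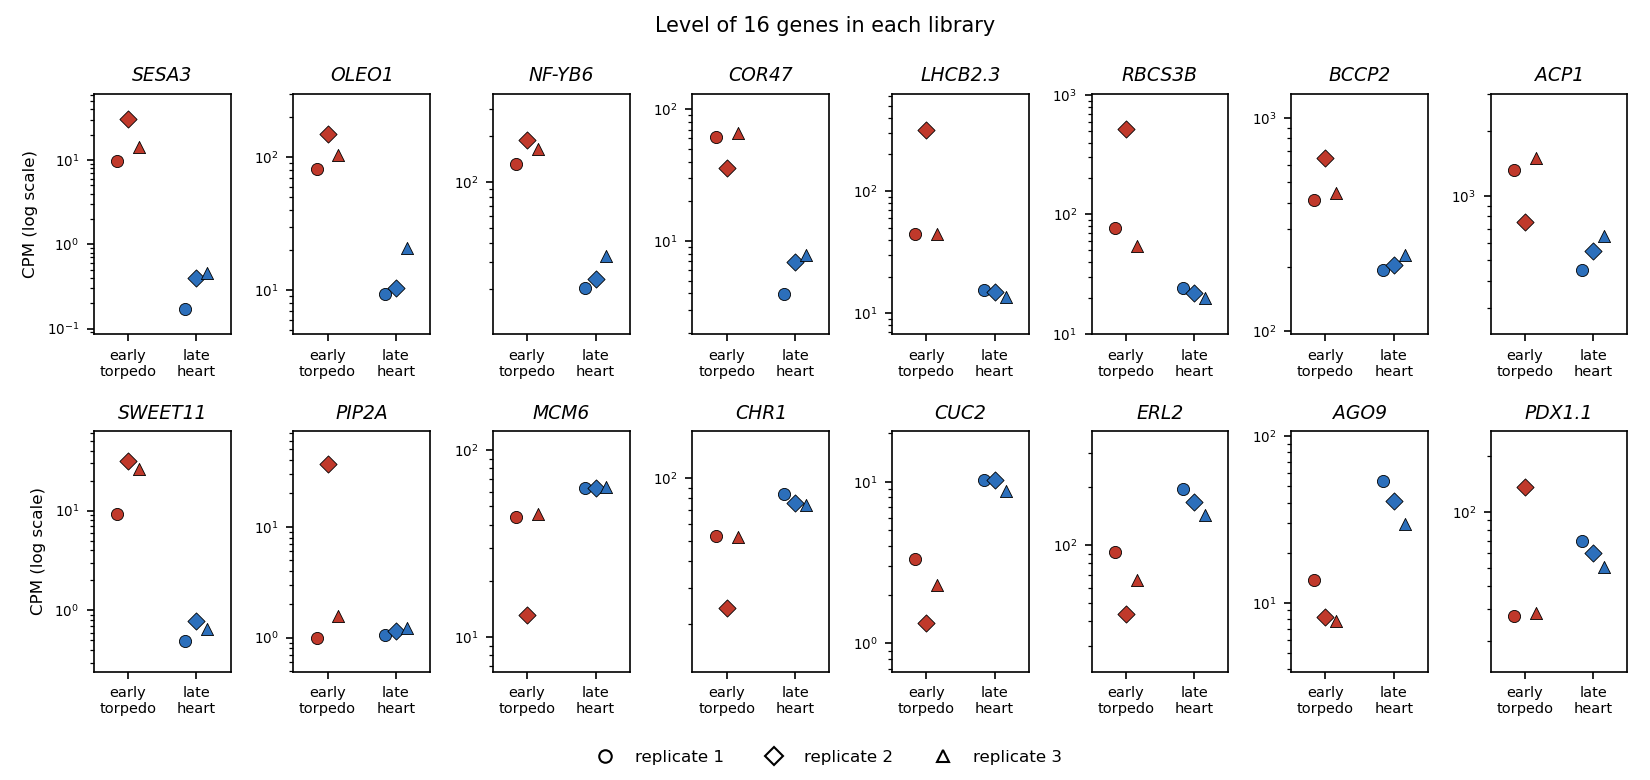
CPM of 16 genes (1 panel each, vertical axis on a log scale) in early torpedo, in red on the left, and late heart, in blue on the right, with 1 symbol per replicate. Early torpedo replicate 2 lies apart from replicates 1 and 3 in LHCB2.3, RBCS3B, PIP2A, MCM6 and PDX1.1, at 136.9 CPM against 27.5 and 28.6 CPM in the last of these, while the early torpedo libraries lie closer together in NF-YB6 and BCCP2.

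The labelled tissue was checked against markers. All 10 embryo markers were detected in each of the 6 libraries, with summed levels of 628, 541 and 622 CPM in early torpedo and 698, 709.6 and 726 CPM in late heart. Of these, STM, CUC1, CUC2, SCR and SHR fell and none rose, against 5.76% and 13.3% of all genes. Without late heart replicate 1 there were 3 falls, where 1.13% of all genes fell. The 10 endosperm markers summed to 5.85, 12.1 and 11.5 CPM in early torpedo and to 3.48, 4.54 and 4.06 CPM in late heart. MEA was at 0 in all 3 early torpedo libraries and in late heart replicates 1 and 2, and IKU2 at 0 in all libraries except early torpedo replicate 1. Of 7 endosperm markers tested 1 rose, 14.3% against 13.3% of all genes. The gene was ALE1 (AT1G62340), a protease of the endosperm around the embryo. It had 3.30, 8.47 and 7.40 CPM in early torpedo, against 0.978, 1.84 and 1.35 CPM in late heart. Its call (adjusted p = 0.0233) was lost without early torpedo replicates 2 and 3 (0.0839 and 0.0520) and without each late heart library (0.114, 0.0579 and 0.0668).

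The 12 seed coat markers summed to 64.4, 34.9 and 69.0 CPM in early torpedo and to 41.5, 44.3 and 44.7 CPM in late heart, replicate 2 being the lowest of all 6 libraries and replicates 1 and 3 the highest. Of 10 tested 1 rose, TT10 (AT5G48100), a laccase of the seed coat pigment. It had 1.94, 3.27 and 3.89 CPM in early torpedo, against 0.431, 0.23 and 0.806 CPM in late heart. The groups did not overlap (log2 fold change 2.63, SE 0.60, adjusted p = 0.00577; without replicate 2, log2 fold change 2.58, adjusted p = 0.0168). TT2 was at 0 in early torpedo replicate 3 and late heart replicate 2, and TT1 and TT16 were at 0 in early torpedo replicates 2 and 3. The part of these tissues in the differences reported here was not tested. Of 12 common reference genes 1 rose, GAPC1 (AT3G04120) of glycolysis, 8.33% against 13.3% of all genes. There were 3 rises without early torpedo replicate 1, 2 without early torpedo replicate 3 and none in the 6 libraries alone. Replicate 2 was the highest early torpedo library in 12 of these 12 genes. Their median log2 difference per library was −0.04, 0.37 and −0.05. Their median was thus near that of late heart in replicates 1 and 3 and above it in replicate 2. Over the 3 libraries it was 0.14 with TMM factors, and −0.34 on the TPM scale, a difference of −0.02 from all genes there.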

How the data were processed

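Poly(A) RNA was measured in 43 libraries, of which the 24 stage libraries (8 stages, 3 each) were fitted and the 6 of early torpedo and late heart compared. Per the submitters' processing notes the authors used cutadapt 1.9.1 and kallisto 0.43.1 with the TAIR10 build, and deposited estimated counts and TPM per transcript, 54845 transcripts of 32507 loci and 96 spike-ins per table. Estimated counts were summed per locus, with spike-ins and other noncoding RNA left out of library sizes, and rounded. kallisto divides reads shared by near-identical genes, so levels of close copies are uncertain.

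The main test was edgeR 4.0.16 (quasi-likelihood, filterByExpr, TMM, Benjamini-Hochberg adjusted p under 0.05) in R 4.3.3 over the 24 libraries. CPM carry TMM factors of 1.14, 0.941 and 1.099 in early torpedo and 1.27, 1.25 and 1.24 in late heart. Alternatives were limma 3.58.1 on log2(TPM + pseudocount), DESeq2 1.42.0, other filters and thresholds, fits of 6 or 5 libraries, a replicate block, and each library left out. The fitting code was tested on simulated data. Same-numbered libraries of the 2 stages did not deviate together (residual r 0.002, −0.023 and 0.094).

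Genes named outside the 28 gene lists (651 entries kept of 662) were chosen by rule, first the 12 rises and 12 falls of greatest fold change among genes called with all libraries and without each of the 6, with a symbol, a mean of 50 CPM or more in the higher group and no overlap; the 5 largest each way called with all libraries but not without early torpedo replicate 2; and the 5 largest differences called only without it. The comparison, lists and rules were chosen with earlier results of these data known. Promoters are the 250 bases before each RefSeq gene start (assembly TAIR10.1), since the tables carry no coordinates; of 48145 transcripts of protein-coding loci, 99.6% had a length found in that annotation.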

Additional observations from a re-analysis of the deposited data

How the results depend on the processing

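Across all genes, no call changed direction with a library left out, in the 6 or 5 libraries, with DESeq2 or with limma. With edgeR, 2789 genes were higher and 1211 lower; DESeq2 gave 3586 and 1613, and without early torpedo replicate 2 gave 2225 and 651. Leaving out 1 of the 6 libraries gave 1280 to 4918 calls, 1037 to 3099 higher and 243 to 1819 lower. With no filter on low counts 761 were lower. limma called 9194 genes (993 higher, 8201 lower) on log2(TPM + 1) and 8368 (904 and 7464) on log2(TPM + 0.1). Only the 6 libraries gave 2336 (1831 and 505), and the 5 without early torpedo replicate 2 gave 7113 (4101 and 3012). A fold of at least 2 left 1523 (1317 and 206), and an adjusted p under 0.01 left 1394 (1147 and 247). The cause of these differences was not tested. The other normalization, the 5 CPM filter and leaving out organelle genes kept the counts within 1.5 times. With globular and bent cotyledon as the ends of the line, the mean position of early torpedo was 0.147 above that of late heart.

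With a replicate block over 24 libraries 2408 genes were higher and 983 lower, 3391 in all; over the 6 libraries it was 1041 and 145, 1186 in all. Same-numbered libraries share only a number, so the block is no pairing of samples.

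PDX1.1 had a log2 fold change of 0.09 with all libraries, −1.102 to 0.458 with 1 library left out and −1.113 in the 5 libraries. Depth limits genes at a few counts, such as most storage protein genes in late heart, where fitted folds are no bounds.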

Other observations

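A further set of 150 genes, 85 higher and 65 lower, passed without early torpedo replicate 2 but not with all libraries. Such gains were not particular to that library. Leaving out early torpedo replicate 1 added 528 higher and 734 lower calls, and leaving out early torpedo replicate 3 added 234 and 224. PDX1.1 (AT2G38230), an enzyme of vitamin B6 synthesis, had 27.5, 137 and 28.6 CPM in early torpedo, against 70.0, 60.1 and 50.6 CPM in late heart. Replicates 1 and 3 lay below late heart and replicate 2 above it (log2 fold change 0.09, SE 0.42, adjusted p = 0.899; without replicate 2, log2 fold change −1.10, adjusted p = 0.0182). GRP2B (AT2G21060), a cold shock domain protein that binds RNA, had 90.11, 152 and 77.0 CPM in early torpedo, against 174, 161 and 141 CPM in late heart. NADP-ME2 (AT5G11670), a malic enzyme, had 32.6, 53.1 and 31.5 CPM in early torpedo, against 63.3, 54.97 and 48.5 CPM in late heart. In both, replicate 2 was within the late heart range and replicates 1 and 3 were below it (adjusted p = 0.00708 and 0.0211 without replicate 2 by edgeR's quasi-likelihood test). ROXY1 (AT3G02000), a glutaredoxin of flower development, had 45.7, 82.0 and 33.6 CPM in early torpedo, against 75.5, 82.6 and 66.6 CPM in late heart and the same order (adjusted p = 0.0347 without replicate 2).

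Many genes called higher or lower with all libraries lay past the late torpedo mean in early torpedo replicate 2. Of the 2789 higher genes 755, 1614 and 1080 exceeded the late torpedo mean in early torpedo replicates 1, 2 and 3. Of the 1211 lower genes 334, 999 and 469 lay under it. Replicate 2 was past that mean for most lower genes, and the other early torpedo libraries were not. These genes were called with replicate 2 included, and it was the farthest library in 66.9% of the higher and 81.9% of the lower ones. The choice of genes thus favoured replicate 2 lying far out. With no share over all genes beside them, the counts cannot place replicate 2 within its stage.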
